A study of Caenorhabditis elegans with 4 samples.

Results

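Of the 2590 regions in the combined peak list for GFP-tagged R02D3.7 in L4 larvae of Caenorhabditis elegans, 549 overlapped a listed peak of both single ChIP libraries (21.2%, Wilson 95% interval 19.7 to 22.8). These supported peaks were chosen by position alone, an overlap of at least 1 bp with a peak of the replicate 1 list and with a peak of the replicate 2 list. Overlap is easier to reach for a wide region, and a region is listed only if its q-value passed in that library. Width, boundaries, spacing and q-values of the supported peaks are therefore tied to the choice, and they are given as a description with no test. The remaining 2041 combined peaks overlapped replicate 1 alone (605), replicate 2 alone (186) or neither (1250).

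R02D3.7, named rcat-1 in the RefSeq gene table, is called a transcription factor by the labels. Strain OP218 expresses it from the transgene wgIs218, which carries TY1, EGFP and FLAG tags together with an unc-119 marker. The transgene was introduced by bombardment into unc-119(ed3) animals, and the line was outcrossed 3 times. Whole L4 hermaphrodites grown at 20 °C were fixed with 2% formaldehyde, so a peak can come from any tissue that makes the fusion protein. The series holds 2 ChIP and 2 input libraries. The peak lists are deposited for the ChIP libraries and for their combination, and no value of the input libraries was analysed here. The labels do not say whether replicates 1 and 2 are separate cultures, so differences between them may be technical.

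In chromatin immunoprecipitation followed by sequencing, DNA fragments crosslinked to the tagged protein pile up around the bound site. The middle of a called region therefore lies near that site, while its edges mark where the pile passes the caller's limit. Edges move with sequencing depth and with the strength of the signal, and a midpoint moves less where the edges shift in opposite directions. Read depth is not part of the peak lists, and it is unknown here. Strength is given as -log10 of the q-value, a p-value corrected for multiple testing by the authors' caller PeakSeq. Coordinates are on WormBase WS190, and no sequence or annotation of that build was used here, so the peaks are given by position with no gene assigned and no sequence shown.

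Supported peaks had a higher median width than the other combined peaks. Their median width was 635 bp in the combined list, with quartiles of 406 and 996 bp and a range of 154 to 5346 bp. The other combined peaks had a median width of 163 bp and quartiles of 67 and 251 bp. No supported peak was narrower than 154 bp, a width that 966 of the 2041 other peaks (47.3%) did not reach. At the wide end, 135 supported peaks (24.6%) exceeded 1000 bp, compared with 5 other peaks (0.245%). Supported peaks made up 419 kb of the 924 kb that the combined list covered, or 45.3%. Leaving out a single combined peak of 117 kb on chromosome X, which overlapped no replicate peak, brought that share to 51.9%.

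The difference in width varied with peak strength. Among peaks with a -log10 q of 5 to 10, the 164 supported peaks had a median width of 388 bp and the 253 others 392 bp. Between 10 and 20, the medians were 617 bp for 149 supported peaks and 687 bp for 24 others. Supported peaks were the wider group at 3 to 5, at 251 bp for 35 peaks against 192 bp for 805, and at 2 to 3, at 1034 bp for 3 peaks against 88 bp for 959. All 198 peaks with a -log10 q of 20 and over were supported, and their median width was 1110 bp. Width rose with -log10 q across the supported peaks, with a Spearman's rho of 0.86 over 549 peaks of 1 list, given as a description.

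**Figure D1:**
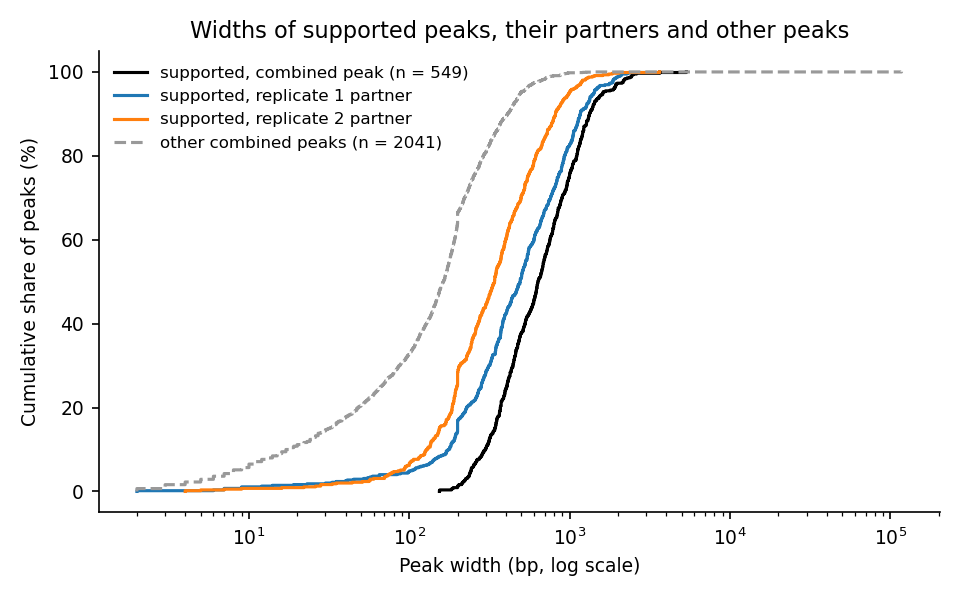
Cumulative share of peaks (%) against peak width in bp on a log scale, for the 549 supported peaks in the combined list, their partners in replicates 1 and 2, and the 2041 other combined peaks. The supported curves lie to the right of the other peaks, with medians of 635, 492, 340 and 163 bp in that order, and both partner curves step up at 200 bp.

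Each supported peak was next set beside its partner in each replicate list, the replicate peak that overlapped it most. Combined regions were the widest of the trio. The median partner width was 492 bp in replicate 1 and 340 bp in replicate 2, against 635 bp for the combined peak itself. The combined peak was wider than both partners at 480 of 549 positions (87.4%). The strict order combined, replicate 1, replicate 2 held at 371 positions (67.6%). A partner covered a median of 83.1% of the combined peak in replicate 1 and 57.8% in replicate 2. Both partners lay wholly within the combined peak at 376 positions (68.5%).

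Replicate 2 peaks tended to be trimmed on both sides relative to replicate 1. Their start lay to the right of the replicate 1 start at 393 of 549 positions (71.6%), with a median shift of 67 bp. Their end lay to the left at 394 positions (71.8%), with a median shift of -74 bp. As the 2 shifts had opposite directions, the midpoints showed a median difference of -2 bp. With a q-value of at most 1e-05 in all lists, the median shift of starts was 125.5 bp and that of ends -91 bp. The midpoint of replicate 2 was to the left at 282 positions and to the right at 265. The replicate 2 partner lay wholly within the replicate 1 partner at 292 positions (53.2%), and the reverse arrangement was found at 48 (8.74%).

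A midpoint difference is the mean of the signed start and end differences, so its size cannot exceed the mean size of those differences. The absolute difference between partners had a median of 99 bp for starts, 102 bp for ends and 62 bp for midpoints. Midpoints lay within 50 bp of each other at 232 positions (42.3%), within 100 bp at 375 (68.3%) and within 250 bp at 510 (92.9%). Both edges agreed within 50 bp at 63 positions (11.5%) and within 250 bp at 398 (72.5%). The combined midpoint fell inside both partners at 424 positions (77.2%). Measured from the combined peak, the midpoint was off by a median of 30 bp in replicate 1 and 50 bp in replicate 2.

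**Figure D2:**
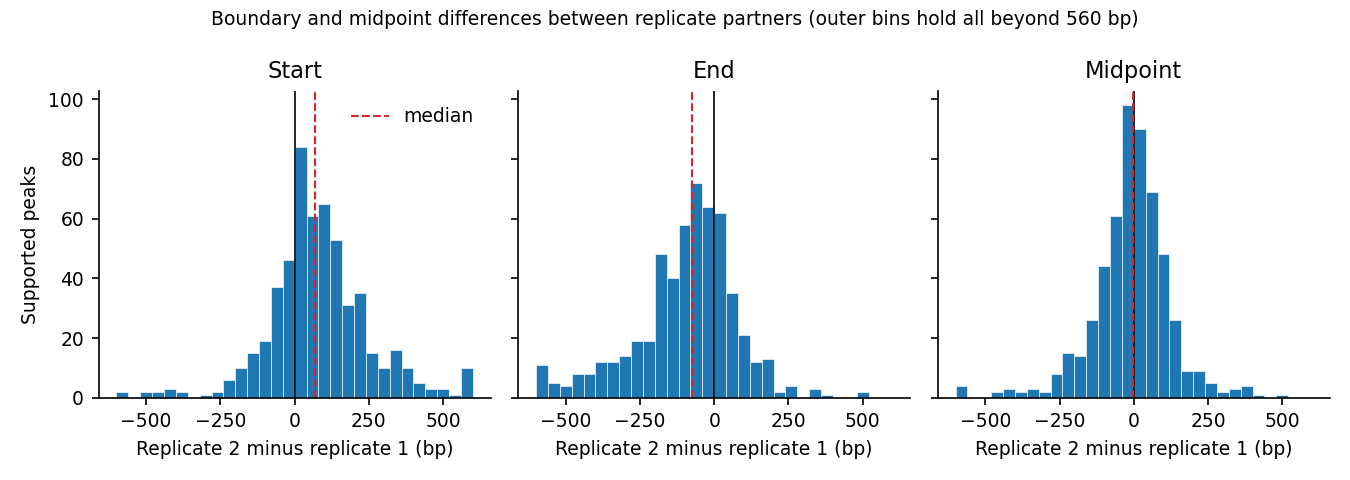
Number of supported peaks against the difference in start, end and midpoint between the replicate partners (replicate 2 minus replicate 1, in bp), with values beyond 560 bp gathered in the outer bins and the median as a dashed line. Starts are shifted to the right (median 67 bp) and ends to the left (median -74 bp), while midpoints centre near 0 (median -2 bp).

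Relative agreement, taken against a combined width that was itself larger at stronger peaks, was higher at those peaks. At a -log10 q of 3 to 5, the midpoints of the partners were a median of 48 bp apart, which was 19.8% of the combined width. At 20 and over they were 81.8 bp apart, or 7.56% of the width. In that bin the median start difference was 154 bp and the median end difference 135.5 bp, against 50 and 76 bp at 3 to 5. The bases common to all 3 lists made up 15.6% of the combined peak in the weaker bin and 61.5% in the stronger bin. The bins between them gave 40.6% and 43.2%. The 3 supported peaks under a -log10 q of 3 did not follow this order, with a median common part of 91.9%. Their values were far apart, at 98.4% on chromosome V, 91.9% on III and 11.6% on IV, and they are described further on.

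**Figure D3:**
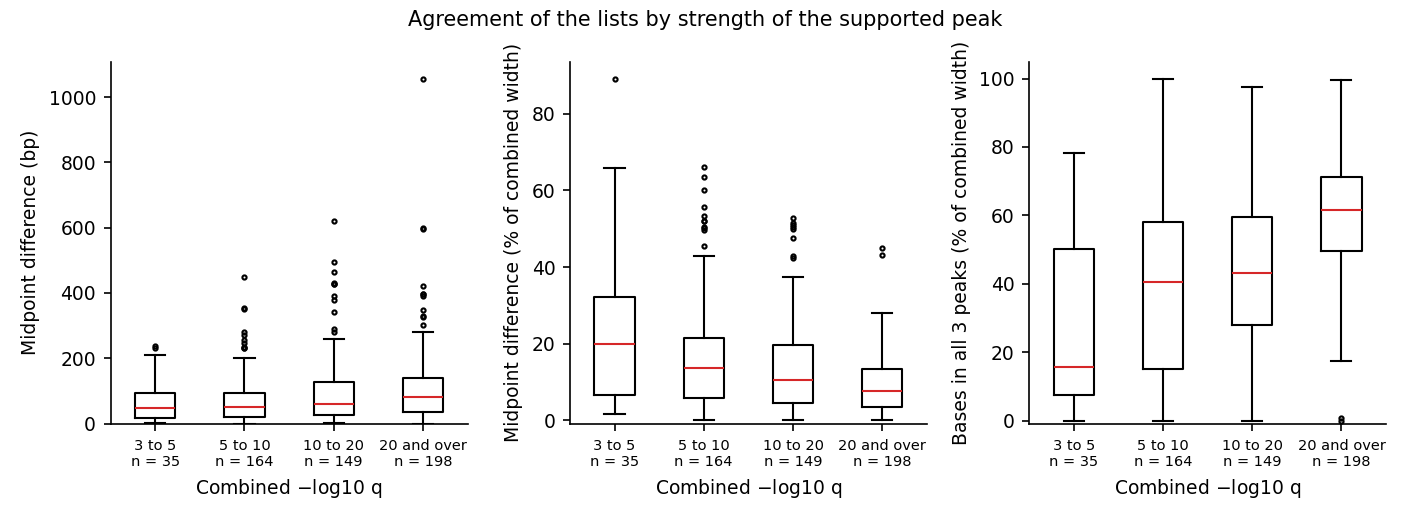
Midpoint difference between replicate partners in bp and as % of the combined width, and the bases common to all 3 peaks as % of the combined width, in 4 bins of the combined -log10 q (boxes are quartiles with the median in red, whiskers reach 1.5 times the box, points lie beyond). The relative midpoint difference falls from 19.8% to 7.56% and the common part rises from 15.6% to 61.5%; the 3 peaks under a -log10 q of 3 are not drawn.

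The 5 strongest supported peaks outside chromosome I show how the lists nest. On chromosome IV at 4748407 to 4750780, the combined peak was 2374 bp wide, its replicate 1 partner 2334 bp and its replicate 2 partner 1174 bp. The replicate 2 list held 2 separate peaks here, so its start lay 977 bp to the right of the replicate 1 start while the ends were 183 bp apart. On chromosome II at 10387223 to 10389168, the widths were 1946, 1862 and 1107 bp, and the partner midpoints were 59.5 bp apart. The chromosome II peak at 4298484 to 4300419 measured 1936 bp when combined, and its partners 2006 and 1312 bp. Its combined start was identical to that of replicate 1. On chromosome V at 5683732 to 5685891 the widths were 2160, 1431 and 1203 bp, with midpoints 58 bp apart. The replicate 1 list held 2 separate peaks there, and 1431 bp was the width of the one with the larger overlap. On chromosome III at 2527861 to 2529801 the widths were 1941, 1959 and 1060 bp, with midpoints 54.5 bp apart. In all 5, the replicate 2 partner was the narrowest, and it lay inside the replicate 1 partner.

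Most supported peaks had a single counterpart in each library. At 506 of 549 positions (92.2%, interval 89.6 to 94.1), the combined peak overlapped 1 peak of either list. At 31 positions (5.65%) it joined 2 or more peaks of replicate 2, and at 19 (3.46%) 2 or more of replicate 1. The 43 positions with several peaks in a list had a median width of 1466 bp, compared with 606 bp for the others, and a median -log10 q of 29.7. The position with the most replicate peaks was on chromosome II at 10541832 to 10544276, where a combined region of 2445 bp held 3 peaks of each library. On chromosome IV, 2162 bp at 11520711 to 11522872 held 2 peaks of replicate 1 and 3 of replicate 2. Another region, at 11592637 to 11594553, was 1 peak of 1899 bp in replicate 1 but 3 peaks in replicate 2. No replicate peak was shared between a pair of supported peaks. In each list, neighbouring peaks were at least 200 bp apart (206 bp in replicate 2). The lists do not tell whether closer features were joined into 1 region.

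The combined peak bridged partners that did not touch each other at 26 positions. The partners overlapped at the remaining 523 (95.3%, interval 93.2 to 96.7). Of the 26, 22 had a single peak in each list, and the gap between partners ran from 6 to 338 bp with a median of 93 bp. Their combined peaks had a median width of 540 bp and a median -log10 q of 7.83. The largest midpoint difference among supported peaks on chromosomes II to X was of this kind. On chromosome IV at 17279699 to 17280904, a 390 bp peak of replicate 1 and a 177 bp peak of replicate 2 lay toward opposite ends, with midpoints 621.5 bp apart. On chromosome III at 12598983 to 12599961, peaks of 393 and 414 bp were 493.5 bp apart at their midpoints. On chromosome X at 6743464 to 6744303, both partners were exactly 200 bp wide, with midpoints 448 bp apart. Under the rule such positions count as supported, although the partners marked separate parts of the region.

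A width of exactly 200 bp recurred in the lists. It was found for 15 partners in replicate 1 (2.73%) and 17 in replicate 2 (3.10%), but for 2 supported peaks of the combined list (0.364%). Among the other combined peaks it occurred 57 times (2.79%). In the whole replicate 1 list 42 peaks had this width and no other width occurred more than 9 times, and in replicate 2 the numbers were 28 and 7. In the whole combined list they were 59 and 19.

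Support at the margin of the rule was thin but uncommon. The smaller of the overlaps with the replicates had a median of 311 bp, and it was 20 bp or less at 13 positions (2.37%). Just inside the rule, the chromosome V peak at 8606158 to 8606389 contained a replicate 1 peak of 2 bp, the narrowest width in that list, and a replicate 2 peak of 178 bp. The chromosome III peak at 6393969 to 6394122, the narrowest of the supported peaks at 154 bp, contained peaks of 9 and 4 bp. On chromosome II at 8075311 to 8075613 the partners measured 195 and 5 bp. Just outside, the closest miss was on chromosome III at 3707134 to 3707318, which overlapped replicate 2 by 106 bp and lay 194 bp from the nearest replicate 1 peak. The next, at 6375017 to 6375266 on the same chromosome, overlapped replicate 1 by 220 bp and lay 211 bp from replicate 2. Of the 791 combined peaks found in a single replicate, 1 had a peak of the other list within 200 bp and 70 (8.85%) had one within 1000 bp.

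Strength and support overlapped over a wide range. The share of combined peaks that were supported was 0.312% at a -log10 q of 2 to 3, 4.17% at 3 to 5, 39.3% at 5 to 10 and 86.1% at 10 to 20. The 24 unsupported peaks at 10 and over came from replicate 1 alone in 23 cases and from replicate 2 alone in 1. Outside chromosome I, the strongest was on chromosome V at 10968889 to 10969382, with a -log10 q of 17.2 and the nearest replicate 2 peak 269621 bp away. It was followed by a chromosome III peak at 2926246 to 2926785 with a -log10 q of 15.2. Within each library, supported peaks accounted for 569 of 1251 peaks in replicate 1 (45.5%) and 583 of 810 in replicate 2 (72.0%). Partners reached down to the bottom of the replicate lists, to rank 1247 of 1251 and 810 of 810.

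The combined q-value was smaller than that of both partners at 542 of 549 supported peaks (98.7%). The ratio of the combined -log10 q to that of the stronger partner had a median of 1.72 and quartiles of 1.53 and 2.00. The 7 exceptions had in part the closest boundaries of all. On chromosome III at 11391655 to 11392028, start and end were identical to the base in all 3 lists, and the combined -log10 q of 5.69 was below the 5.72 of replicate 1 and the 6.49 of replicate 2. On chromosome X at 6806487 to 6806860, the boundaries differed by at most 1 bp. Its combined -log10 q of 6.95 lay between the 5.72 of replicate 1 and the 7.21 of replicate 2. On chromosome V at 264949 to 265982, starts lay within 5 bp and ends within 12 bp of each other. Its combined -log10 q was 2.10, and its partners had 2.38 and 2.33. A peak at 931224 to 931828 on chromosome III shared its start across the lists, with a combined -log10 q of 2.35 beside partner values of 2.86 and 8.49.

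The widest supported peak also belonged to these exceptions. It spanned 5346 bp on chromosome IV at 261033 to 266378, with a combined -log10 q of 2.10. Its partners covered its left part alone, with 1761 bp (-log10 q 4.07) in replicate 1 and 620 bp (6.20) in replicate 2. The other exceptions lay on chromosome III at 7179640 to 7179890 and on chromosome V at 16757453 to 16757817. The first had a partner of 512 bp in replicate 1 and of 28 bp in replicate 2. The second had partners of 35 and 106 bp inside 365 bp.

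A minority of supported peaks, and of the other peaks, had a close neighbour. The nearest combined peak lay within 2 kb, from edge to edge, for 215 of 549 supported peaks (39.2%, interval 35.2 to 43.3) and for 677 of 2041 others (33.2%, interval 31.2 to 35.2). The median gap was 3801 bp for supported peaks and 5163 bp for others. Edges of wide peaks lie closer to their neighbours than midpoints do. From midpoint to midpoint, the shares within 2 kb were 32.4% and 30.7%. With a q-value of at most 1e-05 in all lists, the groups were formed anew, so a peak whose partner missed that limit counted among the others. The shares were then 18.5% of 222 supported peaks (interval 13.9 to 24.1) and 19.8% of 566 others (interval 16.7 to 23.3). These intervals overlapped. Within bins of -log10 q the order went both ways. The shares were 42.9% of supported peaks and 32.8% of others at 3 to 5, 31.7% and 42.3% at 5 to 10, and 43.0% and 58.3% at 10 to 20. At 2 to 3, 0 of the 3 supported peaks and 30.4% of the others had such a neighbour.

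The nearest combined peak was itself supported for 134 of 549 supported peaks (24.4%), where supported peaks are 21.2% of the list. Another supported peak lay within 2 kb for 78 supported peaks (14.2%), and a supported peak lay within 2 kb for 189 of 2041 others (9.26%). Within 2 kb, 137 supported peaks had unsupported neighbours alone, 54 had supported neighbours alone and 24 had both kinds. The nearest other supported peak was a median of 40033 bp away. Supported peaks with a neighbour within 2 kb had a median width of 739 bp and those without one 549 bp. The 189 unsupported peaks within 2 kb of a supported one had a median width of 187 bp, compared with 161 bp for the 1852 farther away.

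**Figure D4:**
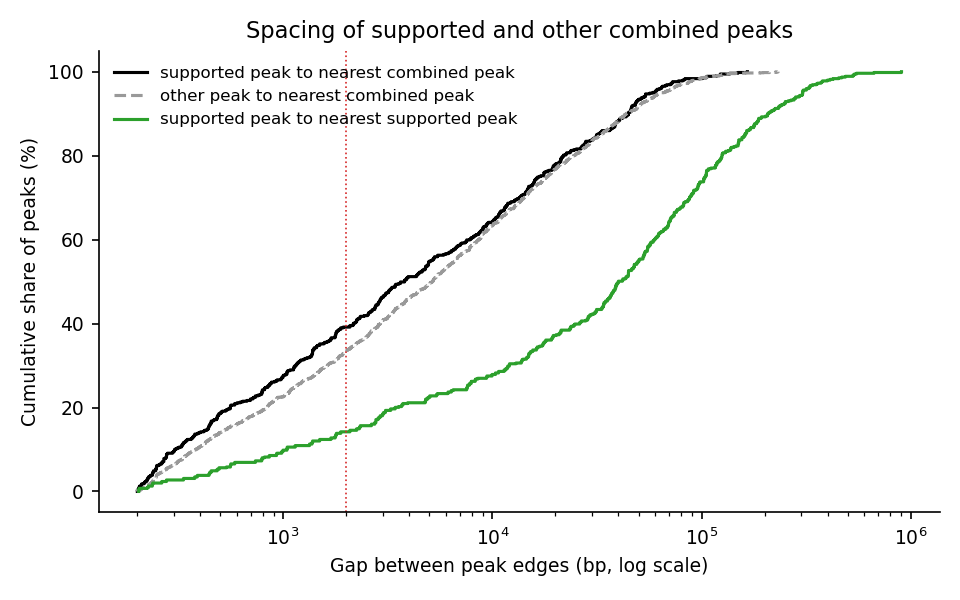
Cumulative share of peaks (%) against the gap to the nearest neighbour in bp on a log scale, for supported and other combined peaks to the nearest combined peak and for supported peaks to the nearest supported one; the dotted line marks 2 kb. The first pair of curves runs close together, at 39.2% and 33.2% at 2 kb, and the curve among supported peaks lies far to the right with a median of 40033 bp.

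The closest supported peaks formed short runs. Near the right end of chromosome IV, the peaks at 17278103 to 17279494, 17279699 to 17280904 and 17281129 to 17281571 were separated by 204 and 224 bp. Their widths were 1392, 1206 and 443 bp, and their -log10 q fell in the same order from 16.4 to 11.5 and 5.59. On chromosome III, a peak of 591 bp at 8356270 to 8356860 lay 205 bp from one of the strongest regions, at 8357066 to 8359041, with a -log10 q of 9.15 and 190 respectively. A similar pair on the same chromosome had widths of 1225 and 263 bp, at 3866774 to 3867998 and 3868236 to 3868498. At the other extreme, the peak on chromosome X at 16929424 to 16931922 had its nearest combined peak 165656 bp away. It was 2499 bp wide, with partners of 2099 and 2034 bp whose midpoints were 37.5 bp apart.

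Support was spread over all 6 chromosomes. Supported peaks numbered 120 on chromosome III, 100 on V, 95 on II, 94 on IV, 78 on I and 62 on X. Their density was 5.49 per Mb overall and ranged from 3.5 on X to 8.72 on III. As a share of each chromosome's combined peaks, they made up 23.8% on II, 23.6% on IV, 22.9% on III, 21.3% on V, 17.6% on I and 17.4% on X. The Wilson intervals of all 6 shares overlapped, the lowest at 13.8 to 21.7% on X and the highest at 19.9 to 28.2% on II. With a q-value of at most 1e-05 in all lists, the shares ran from 16.7% on X to 36.4% on II, a range of 19.7 percentage points instead of 6.39. In that setting the intervals on X (10.5 to 25.4%) and II (28.3 to 45.2%) did not overlap. Support from a single replicate gave ranges of 13.0 to 13.8 percentage points. The lowest share was then on I and the highest on II, again with intervals that did not overlap. These were 16.4 to 23.8% and 29.1 to 38.4% where replicate 2 was required. Where replicate 1 was required, they were 31.3 to 40.1% and 43.8 to 53.5%. Within the -log10 q bin of 5 to 10, chromosome I had the smallest share, at 17 of 68 peaks (25%), and the other chromosomes ranged from 37.5% to 46.9%. In the bin of 10 to 20, all 21 peaks on II were supported and 24 of the 30 on I.

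Supported peaks on the X chromosome had the lowest median width, the lowest median strength and the smallest share with a close neighbour of the 6 chromosomes, and no test was made of these differences. Their median width was 447 bp, against 634 to 768 bp on single autosomes. The other peaks were also narrowest on X by their median, at 135.5 bp against 145 to 200 bp. The median -log10 q of the supported peaks on X was 9.86, against 11.8 to 17.9 for those on single autosomes. A -log10 q of 20 or over was reached by 8 of 62 (12.9%), compared with 36.7% to 46.2% on the autosomes. A combined neighbour within 2 kb was found for 11 of 62 (17.7%, interval 10.2 to 29.0), compared with 35.8% to 46.8%. Unsupported peaks shared the wider spacing, with 20.4% on X against 30.3% to 38.2% on the autosomes. The midpoint difference between partners was similar on all chromosomes, with medians from 53.5 bp on X to 70.3 bp on III.

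Along the chromosomes, supported and other peaks alike were denser in the centre than toward the ends. In nematode autosomes the central regions are rich in conserved genes and recombine less than the arms. With each chromosome's span taken from base 1 to the furthest peak end of any list, the central 50% held 326 of 549 supported peaks (59.4%, interval 55.2 to 63.4). The same part held 1135 of 2041 other peaks (55.6%, interval 53.4 to 57.8), so the intervals overlapped. The central share of supported peaks was 66.0% on V, 64.1% on I, 60.8% on III, 56.8% on II, 54.8% on X and 52.1% on IV. For the other peaks it was 62.3% on V, 52.7% on I, 59.4% on III, 53.0% on II, 52.4% on X and 51.6% on IV. With the span divided into 5 equal parts, the outer parts held 15.1% and 15.8% of supported peaks and the 3 inner parts 22.6% to 23.7%. The other peaks followed the same order, with 17.2% and 17.4% in the outer parts and 20.9% to 22.5% in the inner ones. Among 97 full windows of 1 Mb the number of supported peaks ran from 0 to 14 with a median of 5. The fullest was on chromosome III from 12000001 to 13000000. No supported peak lay in 3 windows, on V from 2000001 and from 17000001 and on X from 7000001, which held 5, 4 and 14 other peaks.

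**Figure D5:**
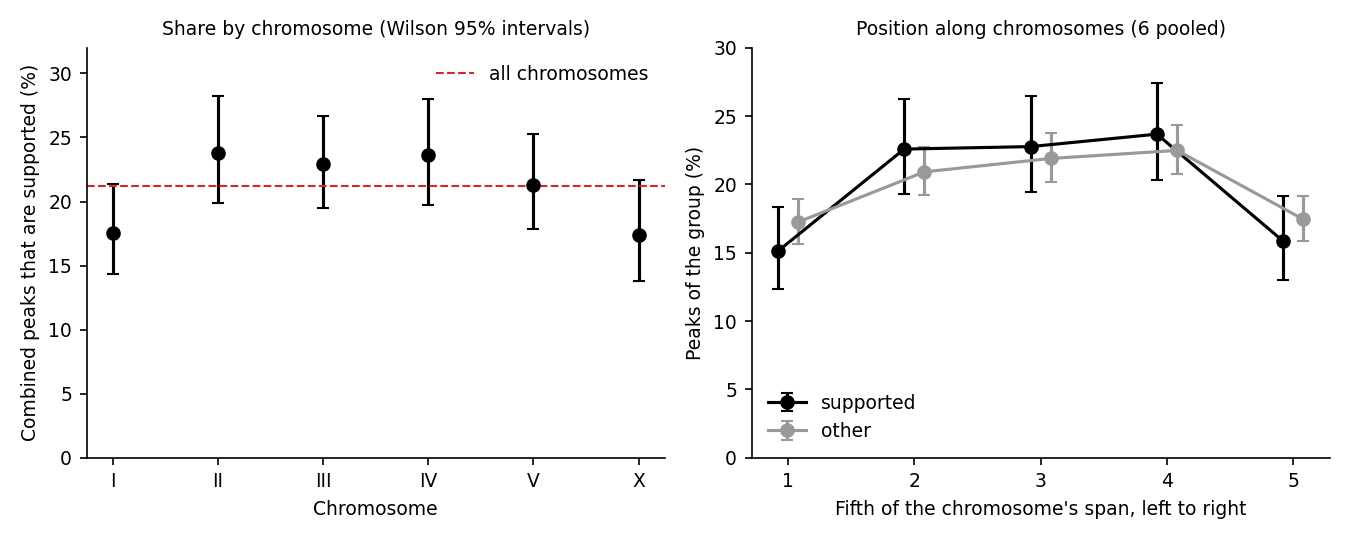
Share of combined peaks that are supported (%) on each chromosome with Wilson 95% intervals, and the share of supported and other peaks (%) in 5 equal parts of the chromosome span, 6 chromosomes pooled. Shares run from 17.4% on X to 23.8% on II around the overall 21.2%, and both groups have their lowest shares in the outer parts (15.1% and 15.8% for supported peaks).

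The number and width of supported peaks depend on the limit of the lists. With a q-value of at most 1e-05 in all lists, 222 combined peaks were supported and 566 were not. Without that limit, 549 were supported and 2041 were not. The median width of the 222 was 1029 bp. Asking for support from replicate 1, with replicate 2 not required, gave 1154 of the 2590 combined peaks, with a median width of 371 bp. Support from replicate 2, with replicate 1 not required, gave 735 of the 2590, with a median width of 481 bp. Both sets include the peaks supported by both replicates.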

How the data were processed

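The deposited files are PeakSeq peak lists on WormBase WS190, per the file headers and the records, 1 for each of the 2 ChIP libraries and 1 combined. The only score is the authors' q-value, an adjusted p-value. The sources used here do not name the aligner, the read filters, the control or how the combined list was made. Overlap, width, midpoint, gap and position were computed from the deposited starts and ends (1-based inclusive) with Python 3.11.15, numpy 2.4.6, scipy 1.17.1 and pandas 2.3.3. The partner of a combined peak was the replicate peak of largest overlap. Shares carry Wilson 95% intervals, which cover counting error only. Peaks of 1 list are not replicates and the members were chosen on these lists, so no test was run. The members, lists and named positions were chosen with earlier results of these data known. Peaks were named by the 5 most extreme of width, strength, boundary or midpoint difference, number of partners, overlap and spacing, and peaks on chromosome I were counted but not placed. The 7 exceptions by q-value, the weakest members, the strongest unsupported peaks and the windows were singled out after their values were seen. The computations recovered 7 of 7 planted quantities in simulated lists. Those lists had fixed offsets and at most 1 partner in each list. The choice among several partners, and partners that do not touch, were therefore not checked.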

Additional observations from a re-analysis of the deposited data

How the results depend on the processing

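Of 97 alternative values, 62 stayed within 1.5 times of a count or within the 95% interval of a share or median, and none whose interval left out 0 changed sign. The median signed midpoint difference, whose interval held 0, went from -2 to 4.25 bp with a q-value of at most 1e-05. An overlap of at least 50 bp or of 50% of the shorter peak, the partner of smallest q, single partners, merging of peaks within 200 bp and spans between the outermost combined peaks moved no value. With a q-value of at most 1e-05 in all lists, the number of supported peaks was 222, beside 566 others, and their median width 1029 bp. In that setting the differences between partners were 137 bp for starts, 120.5 bp for ends and 75.3 bp for midpoints, 97.3% had 1 partner in each list, 100% had overlapping partners and 18.5% had a neighbour within 2 kb. The range of the supported share over chromosomes was then 19.7 percentage points, against 6.39. Leaving out 1 ChIP replicate gave 735 to 1154 of the 2590 combined peaks, median widths of 370.5 to 481 bp and ranges of 13.0 to 13.8 percentage points. The share with a neighbour was 27.5% at 1 kb, 54.8% at 5 kb and 32.4% from midpoint to midpoint. For the other peaks it was 22.5%, 49.5% and 30.7%. By definition a longer distance cannot lower this share, and midpoints lie no closer than edges. The cause of the changes in the other settings was not tested. No paired analysis was possible because values of the input libraries, which carry the same replicate numbers as the ChIP libraries, were not analysed here. Read depth and signal over input were not analysed here, which limits what the narrower replicate 2 peaks can show.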

Other observations

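Starts and ends of the 3 lists each agreed within 20 bp at 10 of 549 supported peaks. Of these 10, 3 (30%, Wilson 95% interval 10.8 to 60.3) had a combined q-value that was not smaller than both partners' q-values, compared with 4 of the remaining 539 (0.742%, interval 0.289 to 1.89). This tolerance was chosen after the data were seen.

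The ratio of the combined -log10 q to that of the stronger partner reached its highest value, 7.27, at another of these 10. That peak, on chromosome I, was 3648 bp wide when combined, and its partners 3637 and 3645 bp. Its combined -log10 q was 42.1, and the partners had 5.79 and 2.51. The lowest ratio among the 10 was 0.878 and the median 1.47, compared with a median of 1.72 over all supported peaks.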
